A study of Homo sapiens with 6 samples.

Results

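The 10 genes described here encode enzymes that modify collagen and join its chains, and they were chosen by gene symbol, 10 of 25368 symbols in each of 2 tables of expression values. They are the lysyl oxidases LOX, LOXL1, LOXL2, LOXL3 and LOXL4, the lysyl hydroxylases PLOD1, PLOD2 and PLOD3, and the catalytic subunits P4HA2 and P4HA3 of collagen prolyl hydroxylase. All RNA came from MRC5, a line of human embryonic lung fibroblasts that had been immortalised with hTERT. In the first table, the cells had been infected for 2 h with adenovirus carrying an empty vector (the control), FLAG-tagged JUN WT or JUN AA, a JUN whose JNK phosphorylation sites were changed to alanine, and cultured for 3 days. In the second table, untreated MRC5 stood beside iCAFs, which are MRC5 cells kept for 7 days in conditional medium (CM) of the breast cancer line MDA-MB-231, and iCAFs given 1 µM of the JNK inhibitor JNK-IN-8 (JNKi) for 48 h. The CM was collected from cancer cells in medium without serum, and the sources used here do not say whether serum was added back, so factors of the cancer cells and a lack of serum cannot be told apart. The label of the iCAFs library does not say whether it received the DMSO vehicle. Each condition has 1 library, so no value below has a replicate check, and no test and no p-value could be given.

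Collagen chains are modified inside the cell before they fold. Prolyl hydroxylase stabilises the triple helix, and lysyl hydroxylases prepare the lysines that later carry cross-links. After secretion, the lysyl oxidases, which are copper enzymes, oxidise lysine and hydroxylysine of collagen and elastin, and the aldehydes formed in this way join neighbouring chains. In fibroblasts these enzymes are known to set the stiffness of the matrix, and several of them are raised in fibrosis and in tumour stroma.

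Levels are FPKM, the fragments per kilobase of exon and scaled to the mapped fragments of a library. Differences are differences of log2(FPKM + 1), which understates changes of genes at low levels, and a gene is called at least 2-fold higher or lower at a difference of 1 on this scale. The comparisons cover the genes that averaged 1 FPKM or more over the 3 libraries of a table, which were 10311 for JUN overexpression and 11780 for JNKi. All 10 enzymes passed in both tables, and none was below 1.36 FPKM in any library. The number of reads is unknown, as FPKM do not show it, so the precision of single values cannot be given. In bulk RNA, fewer cells that express a gene and less RNA per cell cannot be told apart.

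JUN, the introduced gene, was at 25.5 FPKM with empty vector, 4543 with JUN WT and 291 with JUN AA. These values include the introduced transcript. The JNKi table holds no introduced gene that could check its labels in this way. JUN was there at 57.1 FPKM in untreated MRC5, 55.3 in iCAFs and 21.1 after JNKi. All 8 fibroblast markers examined were at 12.1 FPKM or more in each of the 6 libraries. The 7 epithelial and carcinoma markers summed to between 0.407 and 2.49 FPKM, with CDH1, KRT5 and ESRP1 listed at 0 in every library. Among 5 leukocyte markers only CD68 reached 1 FPKM, with 31.1 to 85.7 FPKM and its highest value in JUN WT, and PTPRC was at or near 0 throughout. Of 4 endothelial markers, only TEK reached 1 FPKM, in the JNKi table, where it was at 2.52 FPKM in untreated MRC5, 3.77 in iCAFs and 10.4 after JNKi. The part of these markers in the results below was not tested. In the JUN overexpression table, the differences of all genes varied with the GC content of their transcripts, with a Spearman's rho of -0.39 for JUN WT and -0.32 for JUN AA, each set against the control across 9474 genes, which are not independent replicates. For iCAFs set against MRC5 the same rho was -0.08, and for JNKi set against iCAFs it was -0.04.

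The sequences upstream of LOX, PLOD2 and LOXL1 are shown. LOX was chosen for the largest difference in JUN WT, and PLOD2 for the largest in iCAFs. LOXL1 was chosen for opposite directions in the 2 tables, above the control in both JUN libraries and below MRC5 in both iCAF libraries. The reverse held for LOXL2, LOXL3, PLOD1, PLOD3 and P4HA3, in part by small differences. RefSeq start sites were found for 8 of the 10 enzymes, with 11 start sites in all, and none for LOXL2 and P4HA3. Each sequence holds the 250 bases before the start site on GRCh38.p14, on the strand of the gene. They lie at chr5:122078260-122078509 on the minus strand for LOX (the first of 3 listed starts), at chr3:146161185-146161434 on the minus strand for PLOD2 and at chr15:73926212-73926461 on the plus strand for LOXL1. Capitals mark the letters ACGTG, read on either strand, the core of the element bound by hypoxia-inducible factors and also part of some E-boxes.
LOX: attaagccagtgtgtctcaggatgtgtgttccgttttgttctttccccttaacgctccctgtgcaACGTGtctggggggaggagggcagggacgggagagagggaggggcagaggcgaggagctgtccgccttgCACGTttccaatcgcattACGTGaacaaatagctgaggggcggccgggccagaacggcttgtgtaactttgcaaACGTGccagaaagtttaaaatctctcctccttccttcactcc
PLOD2: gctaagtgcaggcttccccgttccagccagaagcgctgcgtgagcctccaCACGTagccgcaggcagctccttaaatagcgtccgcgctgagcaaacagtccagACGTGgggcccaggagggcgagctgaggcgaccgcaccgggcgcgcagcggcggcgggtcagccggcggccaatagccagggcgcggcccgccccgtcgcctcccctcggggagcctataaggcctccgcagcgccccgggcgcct
LOXL1: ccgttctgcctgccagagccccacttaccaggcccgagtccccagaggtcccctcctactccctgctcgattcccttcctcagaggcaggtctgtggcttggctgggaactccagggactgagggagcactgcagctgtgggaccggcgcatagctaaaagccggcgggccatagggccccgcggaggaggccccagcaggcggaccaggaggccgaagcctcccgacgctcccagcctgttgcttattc

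The letters ACGTG occurred 4 times before this start of LOX, beginning 185, 116, 98 and 42 bases upstream, and 1 time each before its 2 other starts. The windows of these 2 other starts overlap, and the match is the same letters, 68 and 117 bases upstream. Before PLOD2 the letters occurred 2 times, at 200 and 146 bases upstream. They were absent from the windows of LOXL1, LOXL3, LOXL4, PLOD1, PLOD3 and P4HA2. Of 35116 RefSeq start sites, 18.51% had these letters in a window of the same length. The AP-1 heptamer, to which JUN binds with FOS proteins, was searched as TGAGTCA and its reverse complement TGACTCA, and the related CRE as TGACGTCA, which reads the same on both strands. Neither occurred in any of the 11 windows of the enzymes, and they were present in 4.2% and 1.65% of all windows. A match is a description of letters and not of a bound site, and enhancers lie outside these windows.

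The lysyl oxidases held the largest differences between JUN WT and the control, and 2 of them were higher with JUN AA as well. LOX, the founding member of the family, lies on chromosome 5 of GRCh37 from 121398890 to 121414108. The gene had 51.1 FPKM with empty vector, 160 with JUN WT and 91.3 with JUN AA. On the log2 scale JUN WT lay 1.63 above the control, a difference above those of 98.8% of all genes, and JUN AA lay 0.82 above it. LOX thus ranked 6 of the 10 enzymes by FPKM in the control and 2 in JUN WT. In the JNKi table it was at 89.9 FPKM in MRC5 and 92.4 FPKM in iCAFs, a difference of 0.04, and at 151 FPKM in iCAFs+JNKi. The iCAFs stood beside MRC5 here, and the library with JNKi stood apart, 0.71 above iCAFs and above 95.9% of all genes in that comparison.

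LOXL1, which is needed for the upkeep of elastic fibres, lies on chromosome 15 from 74218330 to 74244478. It was at 91.6 FPKM with empty vector, 204 with JUN WT and 193 with JUN AA, and in both JUN libraries it was the highest of the 10 enzymes. Its log2 differences against control were 1.15 and 1.06. The order was the other way round in the JNKi table, with 107 FPKM in untreated MRC5, 74.9 in iCAFs and 54.3 after JNKi. LOXL1 was the only enzyme besides LOXL4 that was lower in iCAFs than in MRC5, by a difference of -0.51, below which lay 8.2% of all genes. LOXL1 shares 335 exon bases, 9.21% of its own, with the antisense gene LOXL1-AS1, which was at 2.17 FPKM with empty vector, 5.54 with JUN WT and 4.21 with JUN AA. In the JNKi table LOXL1-AS1 was at 7.78, 6.87 and 4.44 FPKM in MRC5, iCAFs and iCAFs+JNKi. The strand setting of the counting is not given in the sources used here, so reads of the 2 genes may not be told apart.

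LOXL2, known for its action on the network-forming collagen of basement membranes, lies on chromosome 8 from 23154410 to 23282841. It was at 133 FPKM with empty vector, 118 with JUN WT and 40.5 with JUN AA. JUN WT stood close to the control, with a difference of -0.18, while JUN AA was lower by a log2 difference of -1.69, below which lay 0.8% of all genes. In the JNKi table LOXL2 was at 144 FPKM in untreated MRC5, 276 in iCAFs and 356 after JNKi. It was the highest of the 10 enzymes in both iCAF libraries, and its difference in iCAFs against MRC5 was 0.93, above 97.9% of all genes and just under the 2-fold limit. With a GC trend removed, this difference was 1.01, and under the other alternatives it stayed under the limit, between 0.93 and 0.99.

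LOXL3 and LOXL4, which carry scavenger receptor domains as LOXL2 does, were expressed at lower levels than LOX, LOXL1 and LOXL2 in each library. LOXL3, on chromosome 2 from 74759385 to 74782817, was at 15.7 FPKM with empty vector, 8.95 with JUN WT and 7.24 with JUN AA, and at 5.92, 8.52 and 12.8 FPKM in MRC5, iCAFs and iCAFs+JNKi. It was thus below the control in both JUN libraries, and above MRC5 in both iCAF libraries. It shares 936 exon bases, 20.7% of its own, with HTRA2 on the other strand, and HTRA2 was at 18.1 FPKM with empty vector, 24.1 with JUN WT and 19.0 with JUN AA. It also shares 216 bases, 4.78%, with DOK1, which had 25.3, 14.5 and 23.3 FPKM in these libraries and was lowest with JUN WT. The part of these overlaps in the LOXL3 values was not tested. LOXL4, on chromosome 10 from 100007447 to 100027951, was at 1.74 FPKM with empty vector, 4.17 with JUN WT and 1.60 with JUN AA. Only JUN WT stood apart, at a log2 difference of 0.91 against control and 0.99 against JUN AA. These became 1.21 and 1.32 with a pseudocount of 0.1, so the size of these differences depends on the pseudocount. In the JNKi table LOXL4 lay between 4.97 and 6.71 FPKM.

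**Figure D1:**
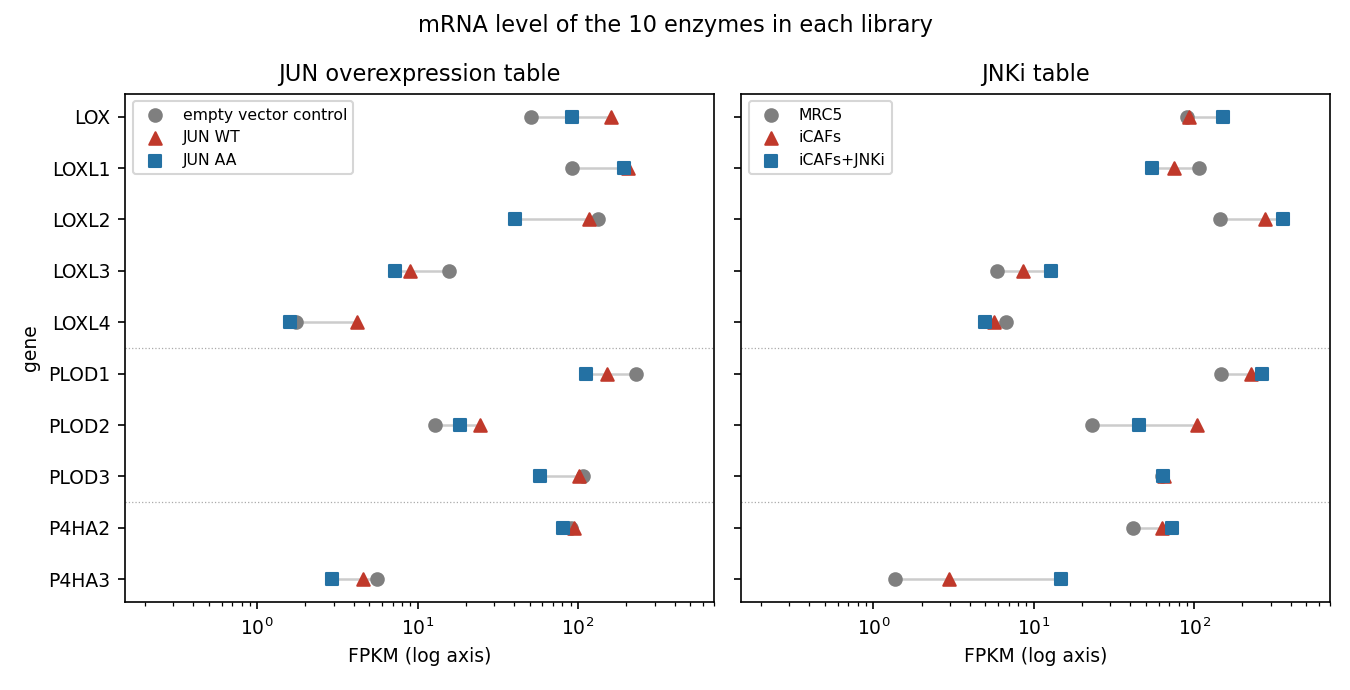
FPKM of the 10 enzymes in each of 6 libraries, on a log axis, with the JUN overexpression table on the left and the JNKi table on the right. Each point is 1 library and grey lines join the lowest and highest of a table. LOX and LOXL1 sit to the right of the control in both JUN libraries, PLOD2 is highest in iCAFs, and P4HA3 runs from 1.36 FPKM in MRC5 to 14.8 FPKM in iCAFs+JNKi.

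Among the lysyl hydroxylases, PLOD2 had the largest difference in iCAFs of all 10 enzymes, and it was lower again with JNKi. PLOD2 hydroxylates lysines in the telopeptides at the ends of collagen chains, which leads to the stable cross-links found in scar tissue, and it lies on chromosome 3 from 145752926 to 145881512. It was at 23.0 FPKM in untreated MRC5, 104 in iCAFs and 45.3 after JNKi. The log2 difference was 2.13 in iCAFs against MRC5, a 4.51-fold higher FPKM and above 99.5% of all genes. In iCAFs+JNKi against iCAFs it was -1.18, below which lay 1.2% of all genes, and the level with JNKi was 0.95 above MRC5 on the log2 scale. In the JUN overexpression table PLOD2 was at 12.8 FPKM with empty vector, 24.5 with JUN WT and 18.4 with JUN AA, differences of 0.89 and 0.49.

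PLOD1, which acts on lysines of the collagen helix, was the most abundant of the 3 lysyl hydroxylases in each library and lies on chromosome 1 from 11994262 to 12035595. It was at 231 FPKM with empty vector, 151 with JUN WT and 113 with JUN AA, so that both JUN libraries lay below the control, with differences of -0.62 and -1.03. It was at 146 FPKM in untreated MRC5, 226 in iCAFs and 265 after JNKi, higher in both iCAF libraries. PLOD3, which also adds sugars to hydroxylysine, lies on chromosome 7 from 100849258 to 100861701. It was nearly level in the JNKi table, between 62.9 and 65.0 FPKM, and was at 108 FPKM with empty vector, 102 with JUN WT and 57.8 with JUN AA. PLOD2 thus took a changing share of the summed FPKM of the 3 genes, 9.9% in untreated MRC5, 26.3% in iCAFs and 12.1% after JNKi. In the JUN overexpression table this share was 3.6% with empty vector, 8.9% with JUN WT and 9.8% with JUN AA.

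The α subunits of collagen prolyl hydroxylase each pair with P4HB to form the active enzyme. P4HA2, on chromosome 5 from 131525840 to 131631008, was at 90.4 FPKM with empty vector, 95.1 with JUN WT and 80.1 with JUN AA, the narrowest range of the 10 enzymes in that table. In the JNKi table it was at 41.9 FPKM in untreated MRC5, 62.6 in iCAFs and 72.5 after JNKi, with a difference of 0.57 in iCAFs against MRC5. P4HA3, on chromosome 11 from 73946846 to 74022685, was at 1.36 FPKM in untreated MRC5, 2.94 in iCAFs and 14.8 after JNKi. This was the largest difference of any of the enzymes with JNKi, 2.0 against iCAFs, a 5.04-fold higher FPKM and above 99.6% of all genes, and only the library with JNKi was above 3 FPKM. P4HA3 shares 166 exon bases, 4.16% of its own, with PPME1 on the other strand, which was at 17.4, 20.7 and 26.2 FPKM in the same 3 libraries. In the JUN overexpression table P4HA3 was at 5.62 FPKM with empty vector, 4.57 with JUN WT and 2.93 with JUN AA. P4HA1, the third α subunit and not one of the 10 genes, was at 33.6, 47.5 and 68.0 FPKM in MRC5, iCAFs and iCAFs+JNKi, and at 41.1, 35.98 and 52.0 FPKM in control, JUN WT and JUN AA.

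The question behind the JUN overexpression libraries was what active JUN does to fibroblasts, with JUN AA as the form that JNK cannot phosphorylate at these sites. In JUN WT against control, 5 enzymes were higher and 5 lower, with a median difference of -0.01 beside 0.149 over all 10311 genes. LOX and LOXL1 were at least 2-fold higher, 2 of 10, where 6.92% of all genes were, and 0 of 10 were at least 2-fold lower, where 3.39% of all genes were. The call of LOXL1 ended with a trend in transcript length removed, at 0.95, and with differences centred on the median gene, where it lay just under the limit. In JUN AA against control, LOX, LOXL1 and PLOD2 were higher and the other 7 lower, with a median of -0.46 beside -0.015 over all genes. LOXL1 was at least 2-fold higher, 1 of 10 where 5.29% of all genes were, and LOXL2, LOXL3 and PLOD1 were at least 2-fold lower, 3 of 10 where 3.77% of all genes were. These 2 comparisons share the control library, and their values are therefore set side by side and not counted against each other. The call of LOXL1 ended with libraries rescaled to equal FPKM sums, at 0.76. The calls of LOXL3 and PLOD1 lay near the limit, at -1.02 and -1.03, and were -0.80 and -0.83 with the GC trend removed, whereas LOXL2 was at -1.48.

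Compared directly, all 10 enzymes were higher in JUN WT than in JUN AA, as were 62.5% of all genes. The median difference was 0.46 beside 0.184 over all genes. LOXL2, at 118 FPKM against 40.5 FPKM, was at least 2-fold higher with a difference of 1.52, 1 of 10 where 6.65% of all genes were, and 0 of 10 were at least 2-fold lower, where 5.61% of all genes were. LOXL4, LOX and PLOD3 followed at 0.99, 0.80 and 0.80. LOXL1 differed least, by 0.09, and this became -0.10 once differences were centred on the median gene and -0.17 with the length trend removed. P4HA2 and LOXL3 changed sign as well. P4HA2, at 0.24, became -0.14 with the GC trend removed and -0.04 with the length trend removed. LOXL3, at 0.27, became -0.01 with the length trend removed. The JUN mRNA level differed between these libraries as well, as given above, so the mutation and the amount of JUN cannot be told apart.

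**Figure D2:**
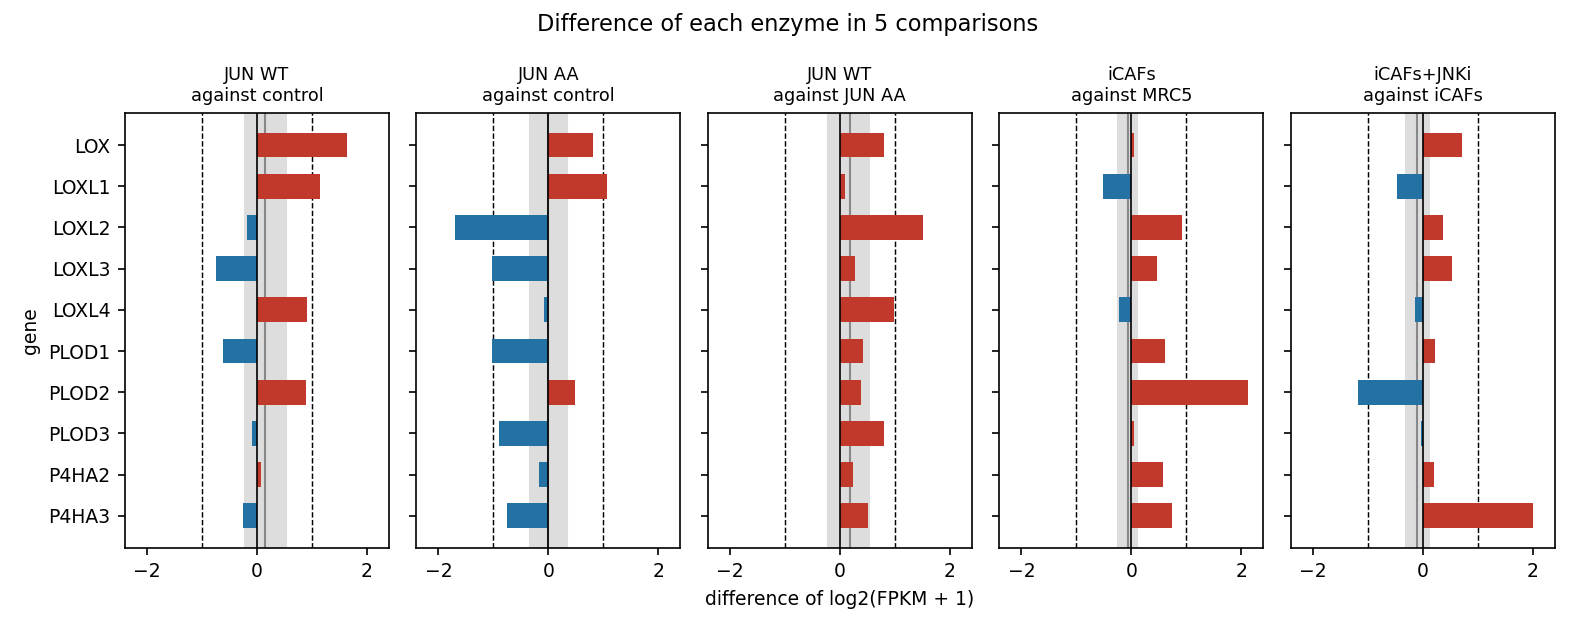
Differences of log2(FPKM + 1) of each enzyme in 5 comparisons, as bars from 0. The grey band spans the lower and upper quartiles of all genes, the grey line their median, and dashed lines mark the 2-fold limit. LOX and LOXL1 pass it upward in JUN WT against control, LOXL1 upward and LOXL2, LOXL3 and PLOD1 downward in JUN AA against control, and PLOD2 and P4HA3 stand out in the comparisons of iCAFs.

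The second table asked what tumour-cell medium does to MRC5 cells and what then depends on JNK. In iCAFs against MRC5, 8 enzymes were higher and 2 lower, with a median difference of 0.51, while the median over 11780 genes was -0.061 and 40.6% of them were higher. PLOD2 was at least 2-fold higher, 1 of 10 where 1.94% of all genes were, and 0 of 10 were at least 2-fold lower, where 1.71% of all genes were. LOXL2, P4HA3, PLOD1 and P4HA2 followed at 0.93, 0.74, 0.62 and 0.57, each above at least 95.1% of all genes. In iCAFs+JNKi against iCAFs, 6 enzymes were higher and 4 lower, with a median of 0.22 beside -0.099 over all genes. P4HA3 was at least 2-fold higher, 1 of 10 where 2.25% of all genes were, and PLOD2 at least 2-fold lower, 1 of 10 where 1.97% of all genes were. The iCAFs library enters both comparisons, so an unusual value in that 1 library would move them in opposite directions. PLOD2 differed between iCAFs+JNKi and MRC5 too, as given above. Against MRC5, P4HA3 and LOXL2 were at least 2-fold higher in iCAFs+JNKi, with differences of 2.74 and 1.30, 2 of 10 where 3.28% of all genes were, and 0 of 10 were at least 2-fold lower, where 3.53% of all genes were. LOXL3, PLOD2 and PLOD1 lay just under the limit, LOXL3 by less than rounding shows, PLOD2 at 0.95 and PLOD1 at 0.85. They passed it with differences centred on the median gene, at 1.16, 1.11 and 1.02, which gave 5 of 10 where 4.39% of all genes passed. LOXL1 was lowest there, at -0.96.

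Ratios of genes within a library do not depend on how the library was scaled, and they show how the composition of each family differed. The trend with GC content in the JUN overexpression table remains in them. In JUN WT against control, genes with a GC content like PLOD2 had a median difference of 0.31, and genes like PLOD1 one of -0.15. Genes like LOXL1 and LOXL2 had medians of -0.35 and -0.08. No ratio given here was corrected for this. The ratio of LOXL1 to LOXL2 was 0.688 with empty vector, 1.73 with JUN WT and 4.75 with JUN AA, and 0.740 in untreated MRC5, 0.271 in iCAFs and 0.153 after JNKi. LOXL2 made up 45.4% of the summed lysyl oxidase FPKM in the control and 12.2% in JUN AA, and 40.8% in MRC5 and 61.4% in iCAFs+JNKi. The ratio of PLOD2 to PLOD1 was 0.0554 with empty vector, 0.163 with JUN WT and 0.164 with JUN AA. It was 0.157 in untreated MRC5, 0.459 in iCAFs and 0.171 after JNKi, so that MRC5 and iCAFs+JNKi stood together and iCAFs apart. The ratio of PLOD2 to COL1A1, which encodes the main chain of type I collagen, behaved alike in that table, with 0.0216, 0.0948 and 0.0197. PLOD1 and COL1A1 were themselves higher with JNKi than in MRC5. Against PLOD3, which was nearly level there, the ratio of PLOD2 was 0.365, 1.60 and 0.712, so with JNKi it stayed above MRC5.

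**Figure D3:**
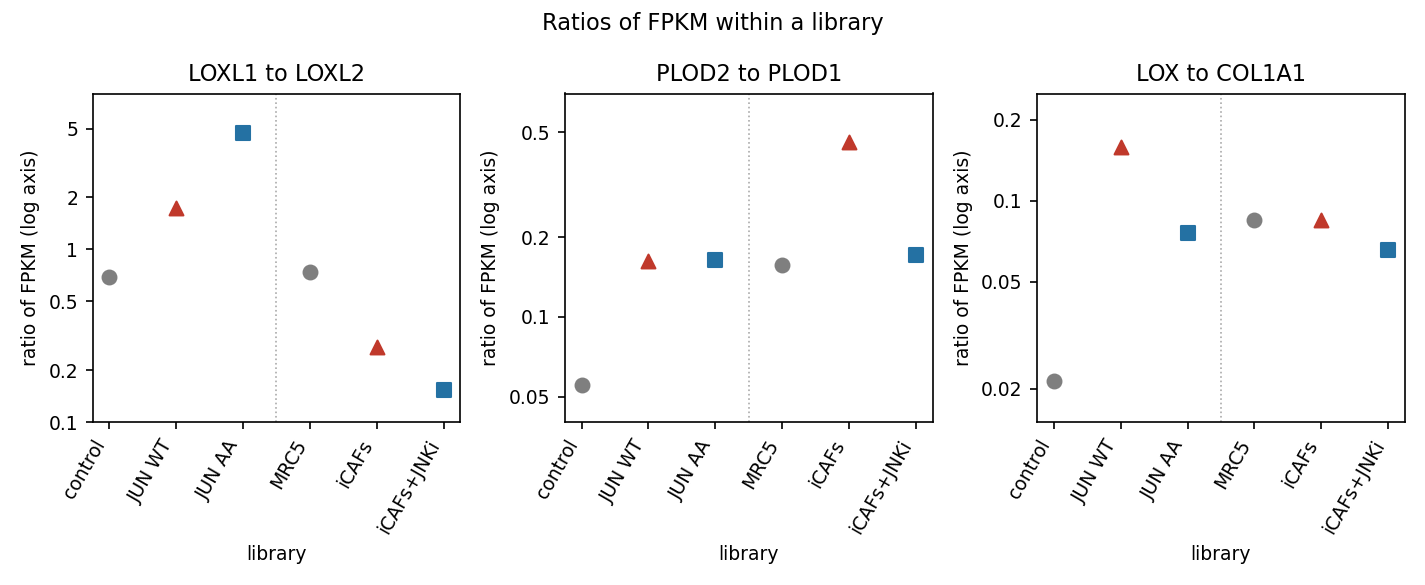
Ratios of FPKM of 2 genes within each library, on log axes, with the JUN overexpression table to the left and the JNKi table to the right of the dotted line. Each point is 1 library. LOXL1 to LOXL2 runs from 0.688 to 4.75 in the first table and from 0.740 down to 0.153 in the second, PLOD2 to PLOD1 peaks in iCAFs at 0.459, and LOX to COL1A1 is highest in JUN WT at 0.158.

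Other genes of the pathway were counted by lists. The substrates, fibrillar collagen chains and elastin, stood apart from the enzymes in JUN WT and with JNKi. In JUN WT against control, 0 of 8 measured substrate genes were higher, with a median of -0.87, where 60.9% of all genes were higher, with a median of 0.149. COL1A1, COL5A1 and COL5A3, 3 of 8, were at least 2-fold lower, where 3.39% of all genes were. COL1A1 was at 2388 FPKM with empty vector, 1014 with JUN WT and 1208 with JUN AA. The ratio of LOX to COL1A1 was thus 0.0214 with empty vector, 0.158 with JUN WT and 0.0756 with JUN AA. In JUN AA against control 0 of 8 were higher as well, with a median of -1.0, where 48.6% of all genes were. COL3A1, COL5A1, COL5A3 and COL11A1 were at least 2-fold lower, 4 of 8 where 3.77% of all genes were. COL1A2 was at 1309, 882 and 871 FPKM in control, JUN WT and JUN AA.

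With JNKi the substrates stood higher than in iCAFs. There, 9 of 10 measured genes were higher and 7 at least 2-fold higher, with a median of 1.22, beside the median of 0.22 for the enzymes. Of all genes, 37.4% were higher and 2.25% at least 2-fold higher in that comparison. COL3A1 was at 73.6 FPKM in untreated MRC5, 46.4 in iCAFs and 296 after JNKi, and COL1A1 at 1065, 1094 and 2305 FPKM. In iCAFs against MRC5, 4 of 10 were higher and 6 lower, with a median of -0.13, where 8 of the 10 enzymes were higher. The list and the enzymes were compared as values only, and the difference between them was not tested.

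The list of partners that modify, fold or carry collagen in the cell holds 14 genes, all of which passed the filter in both tables. Their median was -0.22 for JUN WT and -0.46 for JUN AA, both against control, 0.20 for iCAFs against MRC5 and 0.35 for JNKi against iCAFs. TMEM38B, an ion channel of the endoplasmic reticulum, was at 2.35, 8.69 and 5.79 FPKM in control, JUN WT and JUN AA, and FKBP14, a prolyl isomerase, was at 6.22, 13.5 and 9.34 FPKM. P3H1, a prolyl 3-hydroxylase, was at 157, 83.0 and 71.0 FPKM in these libraries, at least 2-fold lower in JUN AA. P3H2, of the same family, was the 1 partner at least 2-fold higher in iCAFs, at 18.7 FPKM in untreated MRC5, 51.4 in iCAFs and 33.4 after JNKi. P4HB was at 768 FPKM with empty vector, 648 with JUN WT and 430 with JUN AA, and at 438, 604 and 613 FPKM in the JNKi table. SERPINH1, the collagen chaperone HSP47, was at 120 FPKM in untreated MRC5, 141 in iCAFs and 256 after JNKi.

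Of the 14 genes for propeptide processing and for activation of the oxidases, the filter left 10 for JUN overexpression and 9 for JNKi. BMP1, the protease that removes the propeptides of fibrillar collagens and of LOX, was at 71.7 FPKM with empty vector, 33.1 with JUN WT and 37.2 with JUN AA. Its level was below the control in both JUN libraries, where LOX was higher, but in the JNKi table BMP1 had 21.5, 29.5 and 38.4 FPKM in MRC5, iCAFs and JNKi, with LOX highest after JNKi too. EFEMP2, which brings LOX to elastic fibres, had 326, 152 and 251 FPKM in control, JUN WT and JUN AA. With JNKi, 8 of 9 were higher than in iCAFs, with a list median of 0.56, and PCOLCE, POSTN and FBLN5 were at least 2-fold higher, 3 of 9 against the same 2.25% of all genes. PCOLCE, which enhances procollagen processing, was at 148 FPKM in untreated MRC5, 80.8 in iCAFs and 164 after JNKi. FN1, which encodes fibronectin and binds BMP1 and LOX, was at 2044, 3940 and 5813 FPKM in these libraries, and at 531, 555 and 262 FPKM in control, JUN WT and JUN AA. ATP7A, which loads copper onto LOX enzymes, was at 4.46, 4.44 and 6.91 FPKM in MRC5, iCAFs and iCAFs+JNKi, and ATOX1, which hands copper to it, at 91.0, 82.8 and 69.7 FPKM.

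LOX, PLOD2 and P4HA2 are known to respond to hypoxia and to TGF-β, so short lists of genes that respond to each were set beside them. The TGF-β list had a median of 0.93 in iCAFs against MRC5, with CTGF, SMAD7, SKIL, TGFBI and COL4A1, 5 of 10, at least 2-fold higher, where 1.94% of all genes were and their median was -0.061. TGFBI was at 265 FPKM in untreated MRC5, 905 in iCAFs and 1088 after JNKi, and the list had a median of 0.41 with JNKi against iCAFs, where PLOD2 was lower. In JUN WT against control the median of the 9 genes that passed was -0.32, and in JUN AA against control it was -0.67. The hypoxia list had medians of -0.01 in iCAFs against MRC5 over 7 genes and -0.35 in JUN WT against control over 8 genes. NDRG1 was at 84.7, 17.6 and 39.6 FPKM in control, JUN WT and JUN AA. PDK1 went the other way, with 2.39, 5.25 and 8.72 FPKM, and passed the 2-fold limit with JUN AA. In each JUN library, 3 of the 8 hypoxia genes lay above the control and 5 lay below it. Neither list was tested for a part in the levels of the enzymes.

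**Figure D4:**
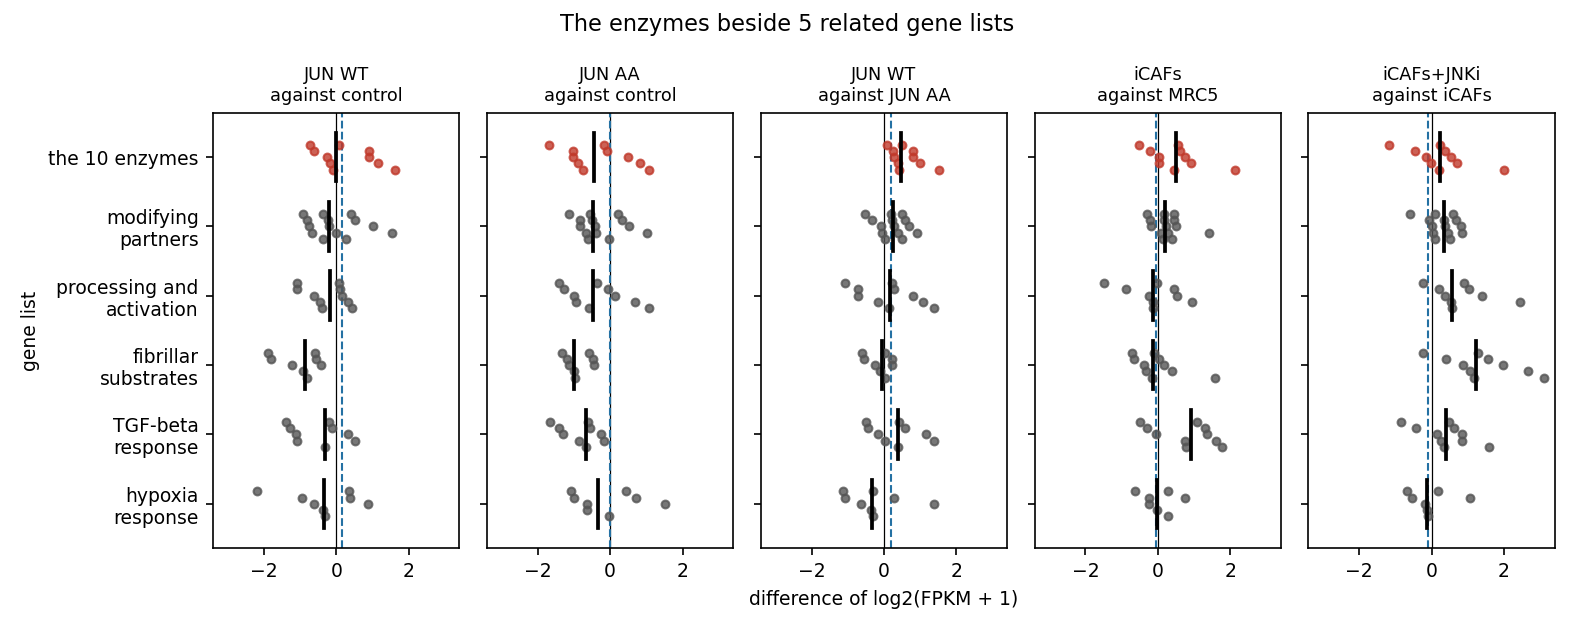
Differences of log2(FPKM + 1) of the 10 enzymes (red) and of the measured genes of 5 lists (grey), 1 point for each gene, in 5 comparisons. Black bars are list medians and the dashed line is the median of all genes. Fibrillar substrates lie left of 0 in JUN WT and JUN AA against control, with medians of -0.87 and -1.0, and to the right with JNKi, at 1.22, whereas the enzymes spread to both sides.

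GC content moved with part of the differences in the JUN overexpression table. The transcripts of LOX, PLOD2 and P4HA2 have a GC content of 39.6%, 37.7% and 44.95%, and those of the other 7 enzymes lie between 54.3% and 67.0%. In JUN WT against control, genes with a GC content like that of LOX had a median difference of 0.30, and genes like PLOD2 one of 0.31. With this trend removed, the difference of LOX in JUN WT was 1.32 and that of PLOD2 was 0.58. P4HA2, at 0.07 before, was at -0.38. LOXL1 has the highest GC content of the 10, at 67.0%, and genes like it had a median of -0.35, so its difference was 1.5 after removal. In the JNKi table the removal left PLOD2 at 2.14 in iCAFs against MRC5 and at -1.13 with JNKi. The part of GC content in these differences was otherwise not tested.

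**Figure D5:**
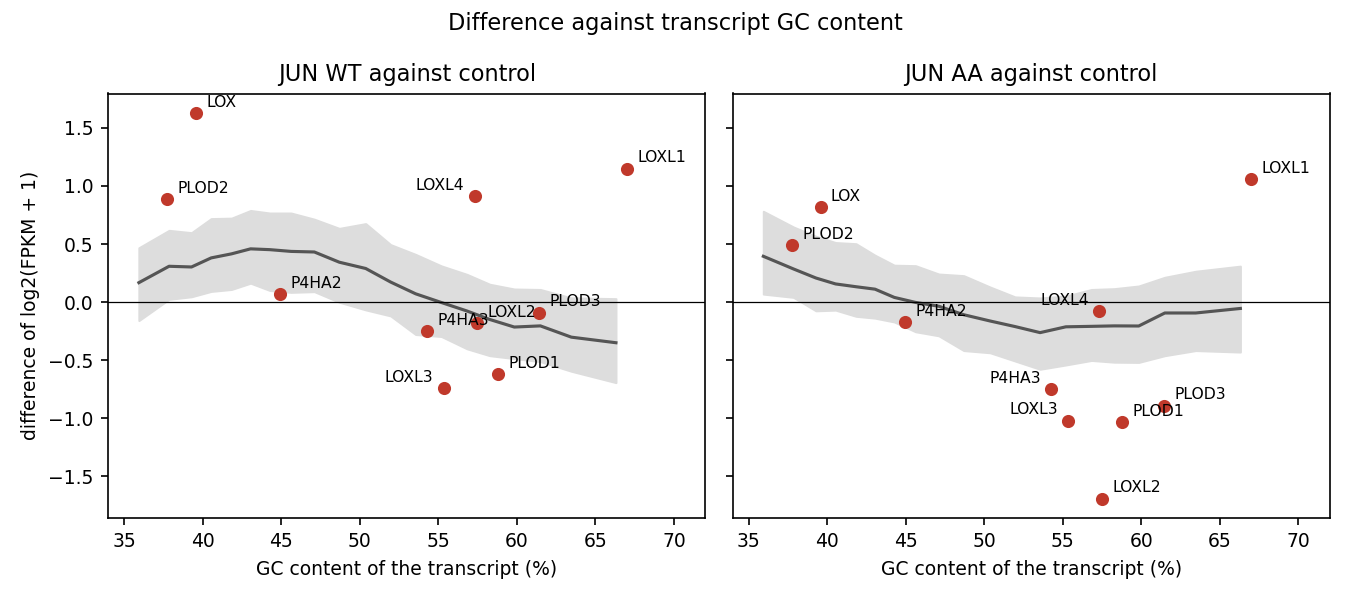
Differences of log2(FPKM + 1) in JUN WT (left) and JUN AA (right) against control, plotted against the GC content of the transcript in percent. The line and band are the median and quartiles of all genes in 20 bins of GC content, and red points are the enzymes. LOX and PLOD2 lie among the transcripts of low GC content, where the line is above 0, and LOXL1 lies far above the line at 67.0%.

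The genes most like LOX and PLOD2 were found by the Euclidean distance over 4 log2 differences, both JUN libraries against control, iCAFs against MRC5 and JNKi against iCAFs, among 5753 genes that averaged 5 FPKM or more in both tables. For LOX these were CD46 at a distance of 0.38, TCEAL3 at 0.52, H2AFY at 0.65, TMEM38B at 0.68 and ALDH18A1 at 0.69. With JNKi against iCAFs these 5 genes differed by 0.10 to 0.37, less than LOX at 0.71. The genes most like PLOD2 were FGF2 at 0.33, SLC39A14 at 0.45, SOD2 at 0.86, DUSP1 at 0.87 and STC1 at 0.96. FGF2, a fibroblast growth factor, differed by 2.38 in iCAFs against MRC5 and by -1.30 with JNKi. With 4 differences from 6 libraries, such distances describe these libraries alone.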

How the data were processed

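RNA-seq of 6 libraries of MRC5 cells, 1 per condition, was used, and conditions were taken from the sample labels. The authors mapped reads to hg19 with HISAT2 2.1.0 and deposited FPKM per gene from StringTie 2.1.1, scaled by exon length and mapped fragments. The annotation, the strand setting and the number of reads are not given in the sources used here, so depth and precision are unknown. The 2 tables were normalised separately, and values were compared only within a table. Of 25370 rows in each, 2 repeated a symbol, and the row with the higher mean was kept.

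Differences of log2(FPKM + 1) were computed with numpy 2.4.6 and pandas 2.3.3 in Python 3.11.15, and figures drawn with matplotlib 3.10.9. FPKM are not counts, so no count model was used, and without replicates no test was made. Genes needed a mean of at least 1 FPKM, and a call a difference of at least 1. The computation was checked on simulated data. The 10 genes and the lists were chosen with earlier results of these data known. Named are the 10 genes, list genes past the 2-fold limit in a comparison, though not every such gene, and direct partners (P4HA1, P4HB, BMP1, FN1, COL1A1, COL1A2, COL3A1, ELN). Also named are the 5 genes most like LOX and PLOD2 each, and genes that overlap or mark other cells. SERPINH1, ATP7A and ATOX1 were added after their values were seen. Positions, transcript length and GC content came from GRCh37 with GENCODE, with GC content found for 91.9% of genes for JUN overexpression and 91.8% for JNKi. Sequences came from RefSeq on GRCh38.p14. The 7 alternatives were a smaller pseudocount (0.1), libraries rescaled so that FPKM sum to 1000000, centring on the median gene, no filter, a mean of at least 5 FPKM, and trends in GC content or length removed as medians of 20 bins.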

Additional observations from a re-analysis of the deposited data

How the results depend on the processing

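FPKM sums were 494603 with empty vector, 498514 with JUN WT and 613184 with JUN AA, and 399532, 393521 and 359944 in MRC5, iCAFs and JNKi, so scaling to a sum of 1000000 lowers JUN AA by construction. Rescaling moved the median of the enzymes in JUN AA against control to -0.79, beside -0.29 over all genes. In JUN WT against JUN AA the median became 0.77, beside 0.466 over all genes. In JUN AA against control, 0 enzymes were then at least 2-fold higher and 5 lower, where 3.28% and 9.28% of all genes were. In JUN WT against JUN AA, 4 were higher, where 17.17% of all genes were. With length trends removed, 1 enzyme was at least 2-fold higher in JUN WT against control, where 4.17% of all genes were. Under the same setting 1 was lower in JUN AA against control, where 3.64% of all genes were. The median of JUN WT against JUN AA was then 0.20. With GC trends removed, 1 was lower in JUN AA against control, where 2.89% of all genes were. In iCAFs against MRC5, 2 were higher under that setting, where 2.12% of all genes were. Centring left 1 higher in JUN WT against control, where 4.23% of all genes were. A pseudocount of 0.1 gave 2 higher in JUN WT against JUN AA, where 11.16% of all genes were. It gave 2 higher in iCAFs against MRC5, where 2.7% of all genes were. For the settings other than rescaling the cause was not tested. The comparison of iCAFs+JNKi against MRC5 was added to the alternatives after seeing the data. There, 5 enzymes were at least 2-fold higher, in place of 2, under each of rescaling, centring, GC trends removed and length trends removed. With the pseudocount of 0.1, 3 were. Of all genes, 4.93%, 4.39%, 4.44%, 4.34% and 4.31% were, in the same order of settings. The other medians and counts stayed within 0.25 on the log2 scale or 1.5 times, limits chosen here because there are no replicates. LOX in JUN WT against control ranged from 1.32 to 1.64, LOXL2 in JUN AA against control from -2.01 to -1.48, PLOD2 in iCAFs against MRC5 from 2.13 to 2.19 and with JNKi from -1.19 to -1.06, and P4HA3 with JNKi from 2.0 to 2.31 over the alternatives, and none of these 5 lost its 2-fold call. The filter at 5 FPKM left out LOXL4 and P4HA3 in the JUN overexpression table. No paired analysis was possible because each condition has 1 library and the labels give no replicate numbers.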

Other observations

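Lysyl oxidases also cross-link elastin, and genes of the elastic fibre differed between the libraries as well. ELN, which encodes elastin, was at 0.118 FPKM in untreated MRC5, 2.33 in iCAFs and 27.6 after JNKi, while LOXL1, the oxidase linked to elastin, was at 107, 74.9 and 54.3 FPKM in the same libraries. ELN and LOXL1 thus stood in opposite order across this table. FBLN5, a fibulin that tethers LOXL1 to elastic fibres, was at 85.5, 72.1 and 190 FPKM, and EFEMP2 at 165, 152 and 175 FPKM. In the JUN overexpression table ELN was at 2.01 FPKM with empty vector, 0.103 with JUN WT and 0.163 with JUN AA and did not pass the filter there, and LOXL1 was above the control in both JUN libraries. FBLN5 was at 65.2, 70.2 and 26.4 FPKM in these libraries. Each value is from 1 library, and the number of reads behind the levels of ELN near 0 is unknown.

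POSTN, which encodes periostin and helps BMP1 to act on LOX, was at 39.6 FPKM in untreated MRC5, 13.6 in iCAFs and 77.3 after JNKi, the only gene of the processing list at least 2-fold lower in iCAFs. In the JUN overexpression table it was at 56.2 FPKM with empty vector, 42.4 with JUN WT and 91.3 with JUN AA. ADAMTS14, a procollagen protease, was at 1.86, 2.60 and 4.97 FPKM in control, JUN WT and JUN AA, the 1 gene of that list at least 2-fold higher in JUN AA.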
